A study of Mus musculus with 40 samples.

Results

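The 8 genes described here encode enzymes of cholesterol synthesis and a protein that holds that synthesis in check, and all 8 are known targets of the transcription factor SREBP2: *Hmgcs1*, *Idi1*, *Fdps*, *Fdft1*, *Sqle*, *Lss*, *Cyp51* and *Insig1*. They were chosen by name, with earlier results of these data known, and the rule itself used no measured values. Of the 21448 gene symbols among the deposited probe counts, these are 8, and 15 of the 30146 probes carry them. All 15 probes passed the filter on low counts. Values are those of the most counted probe of a gene, and the other 7 probes serve as a check.

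The livers were those of wildtype Crl:CD1(ICR) mice, an outbred strain, of both sexes. For 90 days they received GenX, the ammonium salt of a short fluorinated ether acid used in place of longer perfluoroalkyl compounds, by gavage at a low (0.1 mg/kg bw/d), a middle (0.5 mg/kg bw/d) or a high dose (5 mg/kg bw/d), or the water vehicle alone (the controls). Each of the 8 groups of sex and dose held 5 mice, numbered 101 to 105, 201 to 205, 301 to 305 and 401 to 405 in males from control to 5 mg/kg, and 151 to 155, 251 to 255, 351 to 355 and 451 to 455 in females. A library was made from the RNA of 1 fixed and embedded liver section per mouse with TempO-Seq, in which pairs of DNA probes are joined on their target RNA, amplified and counted. The age of the mice and the hour of killing are not given in the sources used here, and the mice had free access to food.

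Cholesterol is built from acetyl-CoA by a long chain of enzymes. *Hmgcs1* makes HMG-CoA, *Idi1* and *Fdps* build the prenyl chain farnesyl diphosphate, *Fdft1* joins such chains to squalene, *Sqle* and *Lss* turn squalene into lanosterol, and *Cyp51* removes a methyl group from lanosterol on the way to cholesterol. When sterols in the membrane of the endoplasmic reticulum run low, the escort protein SCAP carries SREBP2 to the Golgi, where it is cut, and the released part enters the nucleus and turns these genes on. INSIG1 holds SCAP and SREBP2 back when sterols are plentiful, and since its own gene is a target of SREBP2, it closes a feedback loop. The liver is a main site of cholesterol synthesis in the mouse.

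Promoter sequences are shown because a shared factor reads these genes through them, and because 4 of the genes below were called higher in the same group of mice while the fifth was not. The RefSeq promoters used, of the build GRCm38.p6, run from 250 bases before to 50 bases after the start that RefSeq gives the gene. They were at hand for 5 of the 8 genes. These were *Hmgcs1* (chr13:119690101-119690400, plus strand), *Idi1* (chr13:8885356-8885655, plus strand), *Lss* (chr10:76531355-76531654, plus strand), *Cyp51* (chr5:4104648-4104947, minus strand) and *Insig1* (chr5:28071162-28071461, plus strand). Each is printed 5′ to 3′ on the strand of its gene, with matches in capitals to the core of the sterol regulatory element (TCACNCCAC) and to the CCAAT box of NF-Y, a factor known to act beside SREBP2 (CCAAT, read as ATTGG on the other strand).
Hmgcs1: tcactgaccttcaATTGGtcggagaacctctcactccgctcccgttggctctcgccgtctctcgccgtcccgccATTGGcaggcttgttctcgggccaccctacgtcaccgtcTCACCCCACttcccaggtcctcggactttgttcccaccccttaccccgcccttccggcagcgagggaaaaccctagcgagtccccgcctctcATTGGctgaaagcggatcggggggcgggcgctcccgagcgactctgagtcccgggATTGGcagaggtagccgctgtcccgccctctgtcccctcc
Idi1: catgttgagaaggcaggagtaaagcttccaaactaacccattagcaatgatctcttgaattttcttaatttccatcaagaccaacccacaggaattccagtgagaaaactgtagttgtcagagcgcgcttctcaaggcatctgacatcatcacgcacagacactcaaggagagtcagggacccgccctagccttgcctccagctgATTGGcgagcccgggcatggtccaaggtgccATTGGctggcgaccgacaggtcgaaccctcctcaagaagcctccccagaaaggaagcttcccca
Lss: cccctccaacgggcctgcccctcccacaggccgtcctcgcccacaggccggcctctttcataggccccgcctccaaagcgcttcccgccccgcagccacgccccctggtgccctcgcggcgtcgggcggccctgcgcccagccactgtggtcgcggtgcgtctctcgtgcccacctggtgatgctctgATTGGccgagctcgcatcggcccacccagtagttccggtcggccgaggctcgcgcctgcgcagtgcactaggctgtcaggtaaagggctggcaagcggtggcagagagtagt
Cyp51: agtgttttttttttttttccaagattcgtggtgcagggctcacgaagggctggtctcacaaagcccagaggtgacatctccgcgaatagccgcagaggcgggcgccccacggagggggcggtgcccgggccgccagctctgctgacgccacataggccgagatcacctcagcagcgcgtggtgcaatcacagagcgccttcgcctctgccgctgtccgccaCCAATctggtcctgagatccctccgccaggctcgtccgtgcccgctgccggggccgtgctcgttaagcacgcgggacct
Insig1: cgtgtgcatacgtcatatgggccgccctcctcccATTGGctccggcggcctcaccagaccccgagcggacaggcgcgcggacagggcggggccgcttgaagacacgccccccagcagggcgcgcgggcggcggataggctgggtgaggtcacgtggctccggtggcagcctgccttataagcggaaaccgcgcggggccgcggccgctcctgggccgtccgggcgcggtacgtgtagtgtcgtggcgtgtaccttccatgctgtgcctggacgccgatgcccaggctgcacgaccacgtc
The core of the sterol regulatory element was found on either strand in 1 of these 5 windows, that of *Hmgcs1*, where TCACCCCAC lay at bases -137 to -129 from the start. Of all 32851 promoters of this length, 1.24% held it. A CCAAT box on either strand was in 5 of the 5 windows, 4 times in that of *Hmgcs1*, compared with 37.4% of all promoters, and the GC box GGGCGG, not marked, was in 5 of the 5, compared with 35.7%. Both the sterol regulatory element core and CCAAT were in 0.441% of all promoters. These are exact matches of letters, and sites that differ from these letters were not sought. A window without a match is therefore not shown to lack such an element. The counts hold no measure of binding.

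The 39 libraries used held 10341341 to 15562253 reads on probes. The library of mouse 355, with 6711981 reads, was left out, so females at 0.5 mg/kg were 4 mice. The first peak in the histogram of a library's counts lay at 20.8 to 49.8 reads. It was taken as 1 captured molecule, which was not tested. The number of molecules estimated in this way differed between the groups. Its median was 329947 in male controls, 591294 in males at 5 mg/kg, 418492 in female controls and 320469 in females at 5 mg/kg. The precision of a gene with few molecules is therefore limited: *Cyp51* rested on 5.59 to 9.17 molecules per male control, and *Fdft1* on 82 to 117. Reads on Y-linked genes were found in 20 of 20 male and 0 of 19 female libraries. The 6 hepatocyte markers *Alb*, *Ttr*, *Serpina1a*, *Apoh*, *Tat* and *Hnf4a* were read in each group, with a summed level of 6981 to 11960 CPM. In such sections, fewer cells of a type and less RNA per cell cannot be told apart.

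The first question was which of the 8 genes changed in males at the highest dose. In males given 5 mg/kg, 5 of the 8 genes were increased, namely *Hmgcs1*, *Idi1*, *Cyp51*, *Lss* and *Fdft1*, by 1.76-fold to 2.85-fold, and *Insig1* was not among them. A gene was called at an adjusted p below 10% by edgeR's quasi-likelihood test over all 17877 probes tested, and at this dose 8.28% of all probes were called, 4.83% as higher. The median log2 fold change of the 8 genes was 0.87, and that of all probes was 0.10 with TMM scaling, a shift of the scale to which the values below are to be held. With another scaling, DESeq2's size factors, the median of all probes was 0.03.

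*Hmgcs1* (chromosome 13, 119690379 to 119708260 in GRCm38) encodes the enzyme that makes HMG-CoA. Its normalized count in males at 5 mg/kg was 293 CPM in mouse 401, 363 in mouse 402, 418 in mouse 403, 200 in mouse 404 and 330 in mouse 405. In the 5 male controls it was 108, 163, 105, 80.6 and 106 CPM. Each treated male lay above each control. The log2 fold change was 1.51 (standard error, SE, 0.29, 95% confidence interval 0.94 to 2.09, adjusted p = 0.000153), from a mean of 112 ± 30.6 CPM (SD, n = 5) to 321 ± 81.7 CPM (SD, n = 5).

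*Idi1* (chromosome 13, 8885501 to 8892451) interconverts the C5 building blocks of the chain, so that they can be joined. It stood at 277, 396, 542, 209 and 313 CPM in males 401 to 405 and at 155, 171, 160, 142 and 157 CPM in the male controls. The controls were close together and each treated male was above them, though mouse 403 had more than any other male. The log2 fold change was 1.15 (SE 0.30 and adjusted p = 0.00991).

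*Fdft1* (chromosome 14, 63145150 to 63179578) encodes squalene synthase, which commits the chain to sterols. It was 510, 684, 627, 401 and 485 CPM in the treated males and 312, 363, 267, 333 and 266 CPM in controls. The groups did not overlap, and the log2 fold change was 0.81 (SE 0.24 and adjusted p = 0.0246). *Cyp51* (chromosome 5, 4081145 to 4104746) was 48.2, 52.2, 77.3, 31.4 and 65.4 CPM against 26.04, 23.5, 28.1, 26.03 and 18.2 CPM, again without overlap. Its log2 fold change was 1.17 (SE 0.34 and adjusted p = 0.0228).

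*Lss* (chromosome 10, 76531588 to 76557138) encodes lanosterol synthase, which closes the rings of the sterol. It was 115, 122, 123, 37.9 and 83.0 CPM in the treated males and 33.9, 78.0, 51.3, 48.8 and 42.4 CPM in the male controls. Mouse 404 was within the control range, below 4 of the 5 controls, and the other 4 treated mice were above all controls. The log2 fold change was 0.92 (SE 0.28 and adjusted p = 0.0292). For 4 of the 5 called genes the groups did not overlap, and over all probes, 5.29% had each treated male above each control at this dose.

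The remaining 3 genes were not called in males at 5 mg/kg. *Sqle* (chromosome 15, 59315077 to 59331192), which oxidizes squalene, was 128, 157, 159, 58.4 and 99.4 CPM, against 85.0, 69.7, 58.0, 81.8 and 88.2 CPM in controls. Mouse 404 was near the lowest control and the other 4 were above the highest, with a log2 fold change of 0.65 (SE 0.32 and adjusted p = 0.22). *Fdps* (chromosome 3, 89093588 to 89101959) was 492, 381, 487, 273 and 375 CPM against 232, 312, 303, 312 and 316 CPM, with a log2 fold change of 0.45 (SE 0.26 and adjusted p = 0.353).

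*Insig1* (chromosome 5, 28071363 to 28078662), the feedback gene, was the only one of the 8 with a negative value at this dose in males. It was 75.9, 93.3, 98.8, 45.9 and 53.4 CPM in the treated males and 60.9, 110, 115, 105 and 133 CPM in controls. The groups overlapped through control mouse 101, and the other 4 controls were above each treated male. The log2 fold change was -0.51 (95% confidence interval -1.06 to 0.03, adjusted p = 0.265). With counts expressed in molecules it was -0.60 with an adjusted p of 0.084, so that its call depends on this choice.

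Mouse 404 had the lowest value of its group for 8 of the 8 genes. Without mouse 402, 3 of the 5 calls held, and *Fdft1* (adjusted p = 0.108) and *Lss* (adjusted p = 0.113) were lost. Without control mouse 101 or mouse 403, *Lss* was lost, with adjusted p values of 0.106 and 0.10. With all 40 libraries, 2 calls were left, *Hmgcs1* and *Cyp51*.

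**Figure D1:**
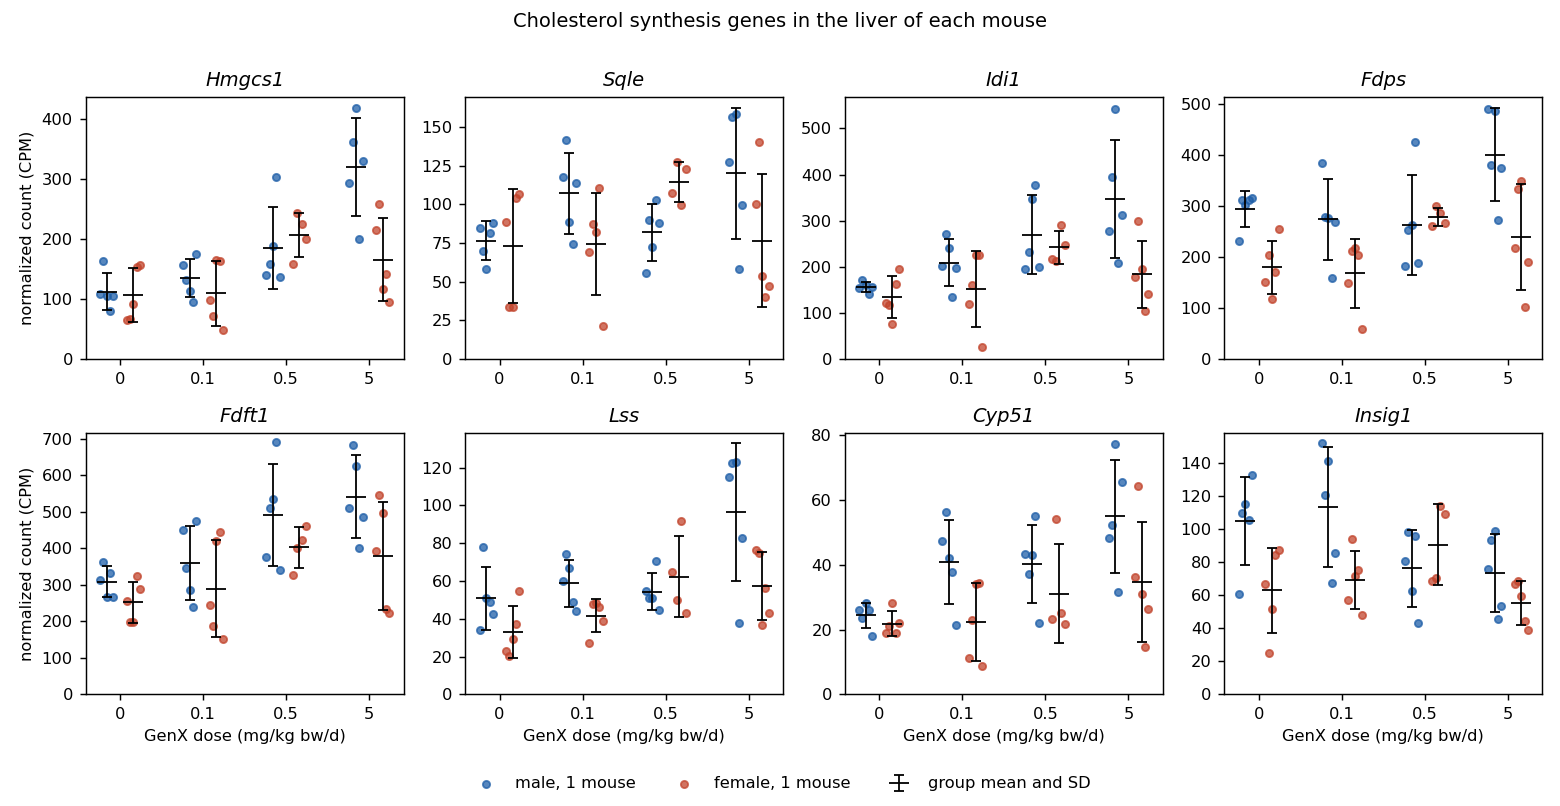
Normalized counts (CPM, vertical axes from 0) of the 8 genes in each mouse against the dose of GenX, with males in blue and females in red and black bars for the group mean and SD. In males, *Hmgcs1* runs from 80.6 to 163 CPM in controls to 200 to 418 CPM at 5 mg/kg, while *Insig1* runs from 60.9 to 133 CPM to 45.9 to 98.8 CPM.

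Other measures moved in the same mice. Among hepatocyte markers, 3 of 6 were called lower in males at 5 mg/kg (*Serpina1a* -1.65, *Apoh* -0.97 and *Hnf4a* -0.80 on the log2 scale), and their summed level was 6981 to 8056 CPM, compared with 8382 to 9943 CPM in controls. Among stellate cell markers, 2 of 6 were called higher (*Col1a1* 1.63, *Col3a1* 2.45), with a summed level of 157 to 194 CPM compared with 63.7 to 129 CPM. Among markers of sinusoidal endothelial cells, 1 of 6 was called lower (*Clec4g* -0.61), with 92.4 to 178 CPM compared with 159 to 187 CPM and 1 gene at 0 in the treated mice. For macrophages and Kupffer cells, 0 of 6 were called (34.6 to 57.4 CPM, compared with 31.4 to 105 CPM, with 1 gene at 0 in the treated mice), for cholangiocytes 0 of 3 tested (3 of 6 genes at 0 in both groups), and for lymphocytes 0 of 5 tested (0 to 7.24 CPM, compared with 0 to 13.8 CPM). *Apoh* was also called lower in males at 0.5 mg/kg (-0.45). In females at 5 mg/kg, these 3 hepatocyte markers were called lower, with a summed level of 7749 to 9726 CPM compared with 9588 to 10620 CPM, and 0 genes of the other 5 lists were called. The part of these shifts, and of the number of molecules, in the results was not tested.

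At 0.5 mg/kg in males, 0 of the 8 genes were called by edgeR, although 4 had an unadjusted p below 0.05, and 0 were called by DESeq2, where 3 did. At this dose edgeR called 2.38% of all probes (425), 18.1% had an unadjusted p below 0.05, and DESeq2 called 865. *Idi1* was 194, 231, 347, 376 and 200 CPM in males 301 to 305, each above each control, as was the case for 2.18% of all probes. Its log2 fold change of 0.78 (SE 0.30) had an adjusted p of 0.24. *Hmgcs1* was 140, 158, 188, 303 and 137 CPM, with 2 of the 5 mice above the highest control and a log2 fold change of 0.72 (adjusted p = 0.248). *Fdft1* was 377, 512, 535, 690 and 341 CPM, with a log2 fold change of 0.67 (adjusted p = 0.182). For *Cyp51* the value was 0.72 (adjusted p = 0.259), and for *Insig1* it was -0.46 (adjusted p = 0.445). The median of the 8 genes was 0.38 and that of all probes was 0. The count depended on the setting: 2 genes (*Idi1* and *Fdft1*) were called when male controls and males at 0.5 mg/kg were fitted alone, and 3 (with *Hmgcs1*) without the filter on low counts. The share of all probes called under these settings is not given here.

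With 0.1 mg/kg in males, 0 of the 8 genes were called by edgeR or DESeq2, and 1, *Cyp51*, had an unadjusted p below 0.05 with either tool. It was 47.3, 56.2, 42.1, 37.6 and 21.3 CPM in males 201 to 205, and its log2 fold change of 0.75 (SE 0.34) had an adjusted p of 0.35. Of all probes, 0.0336% (6) were called at this dose by edgeR, 13.6% had an unadjusted p below 0.05, and DESeq2 called 274. Over the 8 genes, log2 fold changes ran from -0.10 (*Fdps*) to 0.75, with a median of 0.24.

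In females, the most counted probes of the 8 genes were not called at any dose. This was by edgeR on the reads of the 39 libraries, with the filter on low counts. Another probe and other settings gave calls in females, as described below. At 0.5 mg/kg, each of the 8 genes had a positive log2 fold change, from 0.51 (*Cyp51*) to 0.95 (*Hmgcs1*), with a median of 0.66, while that of all probes was -0.0014 and 46.5% of all probes were positive. By edgeR, 0 were called and 5 had an unadjusted p below 0.05, and DESeq2 gave the same counts. At this dose edgeR called 0.213% of all probes (38), 10.2% had an unadjusted p below 0.05, and DESeq2 called 302. The 8 genes share the same 5 control mice and, within groups, vary together (see the deviations described further on), so that they are not 8 separate observations.

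*Hmgcs1* was 159, 243, 225 and 201 CPM in females 351 to 354 and 65.6, 66.5, 91.9, 154 and 157 CPM in the female controls. Each treated female lay just above or well above the highest control, and the log2 fold change was 0.95 (SE 0.30 and adjusted p = 0.371). *Idi1* was 218, 214, 291 and 248 CPM compared with 122, 117, 76.0, 162 and 196 CPM, with a log2 fold change of 0.85 (SE 0.32 and adjusted p = 0.485). *Fdps* (260, 300, 286 and 267 CPM) and *Fdft1* (326.4, 402, 422 and 461 CPM) were also above all controls, whose highest values were 256 and 325.6 CPM. In all, the groups did not overlap for 4 of the 8 genes, and the same was true of 0.912% of all probes. For *Fdft1* this depended on the scaling. When all 40 libraries were scaled together, the lowest of these 4 females had 327.3 CPM, below the highest female control at 330.7 CPM.

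*Lss* was 64.5, 49.97, 91.5 and 43.2 CPM in females at 0.5 mg/kg, against 23.1, 20.3, 29.2, 37.1 and 54.7 CPM in controls, so that the groups overlapped through control mouse 155. Its log2 fold change was 0.92 (SE 0.29 and adjusted p = 0.392). The intervals of the 5 genes with an unadjusted p below 0.05 were wide, as for *Hmgcs1*, from 0.35 to 1.55. Without the filter on low counts, 2 genes were called at this dose, *Hmgcs1* (adjusted p = 0.0212) and *Idi1* (adjusted p = 0.0718). The share of all probes called without the filter is not given here.

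At 5 mg/kg in females, 7 of the 8 genes had positive log2 fold changes with a median of 0.51, while the median of all probes was -0.01. By edgeR 0 were called and 3 (*Lss*, *Fdft1* and *Hmgcs1*) had an unadjusted p below 0.05, while DESeq2 called 1, *Lss*. Of all probes, 3.66% (655) were called at this dose by edgeR, 17.9% had an unadjusted p below 0.05, and DESeq2 called 988. Each treated female lay above each control for 1.86% of all probes and for none of the 8 genes. *Lss* was 76.1, 74.8, 36.6, 56.2 and 43.3 CPM in females 451 to 455, and its log2 fold change was 0.80 (SE 0.28 and adjusted p = 0.136). It was called without control mouse 155 (adjusted p = 0.029) or without mouse 453 (adjusted p = 0.07). *Hmgcs1* was 215, 259, 117, 142 and 95.2 CPM, so that 2 females stood above the highest control and 3 among the controls, with a log2 fold change of 0.63 (SE 0.28 and adjusted p = 0.258). *Sqle* was 101, 141, 53.6, 40.2 and 47.5 CPM, so that 1 female, mouse 452, stood above the highest control, and its log2 fold change was 0.06 (adjusted p = 1).

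At 0.1 mg/kg in females, 0 of the 8 genes were called with either tool and 0 had an unadjusted p below 0.05. By edgeR, 0% of all probes were called, 10.3% had an unadjusted p below 0.05, and DESeq2 called 166. The log2 fold changes of the 8 genes ran from -0.10 (*Fdps*) to 0.34 (*Lss*). The mice differed widely: *Idi1* was 120, 160, 227, 226 and 27.2 CPM in mice 251 to 255, and *Sqle* was 69.1, 87.6, 82.4, 111 and 21.7 CPM. Mouse 255 was the lowest of its group for 7 of the 8 genes.

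**Figure D2:**
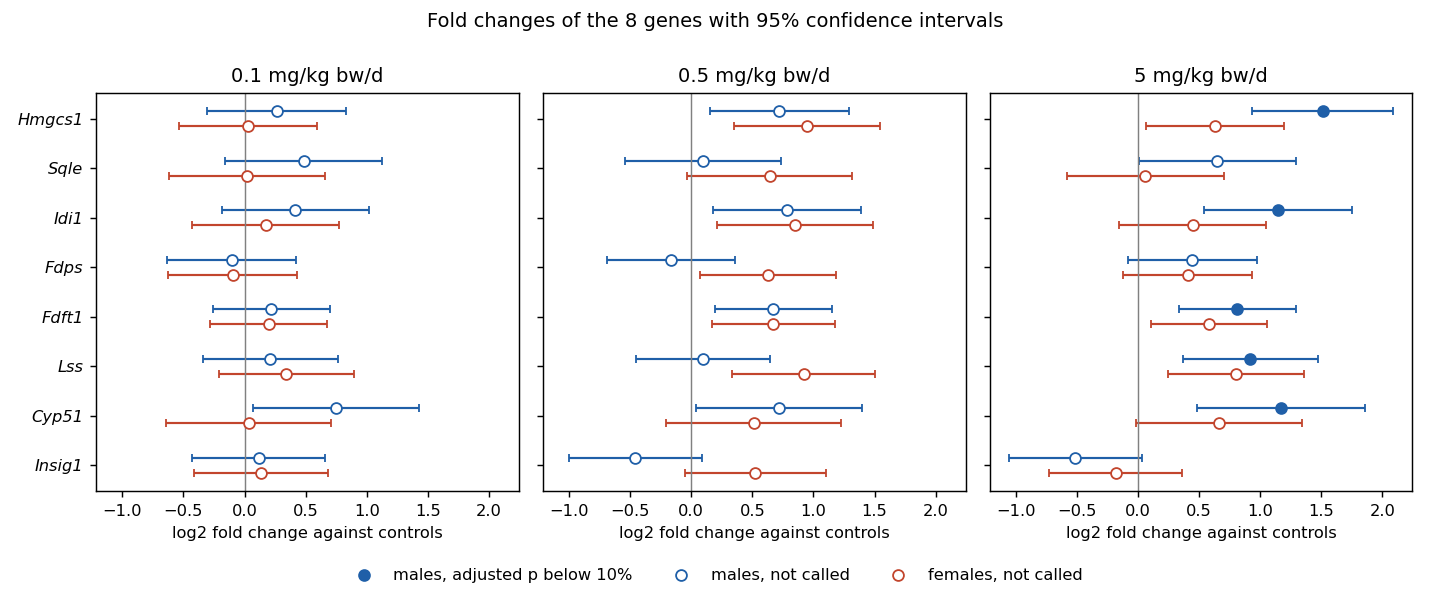
Log2 fold change of each of the 8 genes (rows) against controls of the same sex with a panel for each dose of GenX, with 95% confidence intervals as bars, males in blue, females in red, and filled points for an adjusted p below 10%. The 5 filled points are those of males at 5 mg/kg, where *Hmgcs1* reaches 1.51 and *Insig1* lies at -0.51.

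Whether the sexes differed in their response was tested by an interaction, the effect in females minus the effect in males. At 5 mg/kg, 0 of the 8 differences passed the FDR by edgeR and 1 had an unadjusted p below 0.05, and 0 and 0 did by DESeq2. Of all probes, 1.04% (186) were called by edgeR, 12.4% had an unadjusted p below 0.05, and DESeq2 called 543. The median of all probes was -0.16 here, and -0.07 with DESeq2's size factors. For *Hmgcs1*, the difference was -0.88 (95% confidence interval -1.68 to -0.08, adjusted p = 0.344), so that the larger change in males was not shown to differ from that in females. At 0.5 mg/kg, 0 were called with either tool and 3 had an unadjusted p below 0.05 with either. By edgeR, 0.274% of all probes (49) were called, 10.9% had an unadjusted p below 0.05, and DESeq2 called 389. The largest of the 3 was that of *Insig1*, with a difference of 0.98 (95% confidence interval 0.19 to 1.77, adjusted p = 0.304), from -0.46 in males and 0.52 in females. *Lss* (0.82) and *Fdps* (0.79) followed, with adjusted p values of 0.446 and 0.444. At 0.1 mg/kg, 0 were called and 0 had an unadjusted p below 0.05 with either tool. Of all probes, 0% were called by edgeR, 8.41% had an unadjusted p below 0.05, and DESeq2 called 216.

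Between the controls of both sexes, 8 of the 8 genes had lower estimates in females by their most counted probes. Of all probes, 51.9% had higher estimates in females, and the 8 genes are not separate observations, as said above. The second probes of *Sqle* (0.30) and *Hmgcs1* (0.06) had higher estimates in females. Those of the other probes of *Idi1*, *Fdps*, *Fdft1* and *Lss* were lower. Of the most counted probes, 0 were called by either tool, and 3 had an unadjusted p below 0.05 with either. Of all probes, 3.49% (624) were called by edgeR, 18.9% had an unadjusted p below 0.05, and DESeq2 called 1092. *Insig1* was 66.8, 25.1, 51.7, 84.2 and 87.2 CPM in female controls, and its difference of -0.73 (SE 0.27) had an adjusted p of 0.182. *Fdps* was 152, 204, 119, 171 and 256 CPM in female controls, of which 1 lay within the range of the male controls, with a difference of -0.71 (SE 0.26 and adjusted p = 0.182). For *Hmgcs1* the difference was -0.07 (95% confidence interval -0.64 to 0.49).

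The pair of *Hmgcs1*, which makes HMG-CoA, and *Insig1*, which restrains SREBP2, was looked at mouse by mouse after their values had been seen, so the ratio is a description with no test. The ratio of their normalized counts was 0.766 to 1.77 in male controls (median 0.909), 0.807 to 2.05 at 0.1 mg/kg, 1.61 to 3.15 at 0.5 mg/kg (median 3.00) and 3.86 to 6.17 at 5 mg/kg (median 4.24). In females it was 0.981 to 2.65 in controls (median 1.80), 0.756 to 2.32 at 0.1 mg/kg, 1.84 to 3.44 at 0.5 mg/kg (median 2.14) and 1.95 to 3.79 at 5 mg/kg (median 3.22). In males the ratios at 5 mg/kg did not overlap with those of any lower dose, and in females those of controls and 5 mg/kg overlapped. The share of other gene pairs without overlap is not given here. The ratio has no absolute meaning, since the probes of 2 genes can differ in efficiency, but it is free of the scaling of the libraries.

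**Figure D3:**
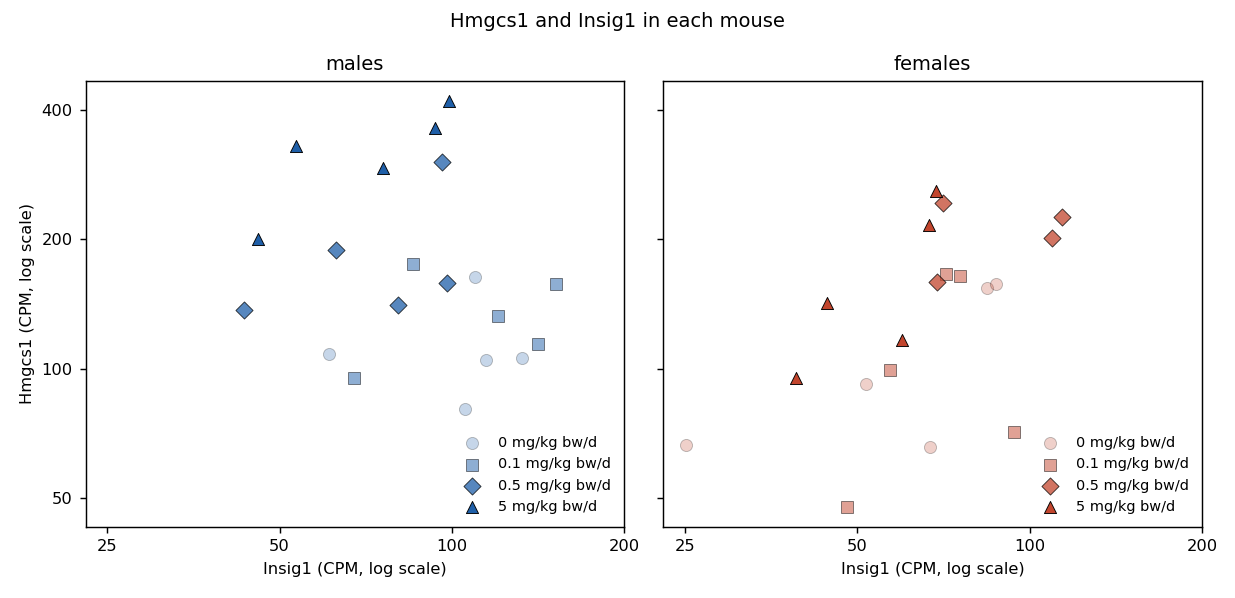
*Hmgcs1* against *Insig1* in each mouse (CPM, both axes on a log scale), males on the left, females on the right, with a symbol for each dose. Males at 5 mg/kg lie above and to the left of most controls, with ratios of 3.86 to 6.17 compared with 0.766 to 1.77 in controls.

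Within groups, the 8 genes varied together from mouse to mouse. For each gene, the deviation of a mouse from the mean log2 CPM of its own group was taken, which removes the differences between doses and sexes. Over the 39 libraries, Pearson's r between the deviations of a gene and the mean deviation of the other 7 was 0.86 for *Idi1*, 0.80 for *Sqle*, 0.79 for *Hmgcs1*, 0.79 for *Fdft1*, 0.78 for *Fdps*, 0.64 for *Insig1*, 0.63 for *Cyp51* and 0.56 for *Lss*. Single pairs ran from 0.34 (*Fdft1* and *Lss*) to 0.84 (*Idi1* and *Fdps*). These points share their library and its scaling, and they are given as a description.

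The mice at the ends were few. The mean deviation over the 8 genes was lowest in mouse 255, a female at 0.1 mg/kg, at -1.08, followed by mouse 404 at -0.72 and mouse 454, a female at 5 mg/kg, at -0.58. It was highest in mouse 452, a female at 5 mg/kg, at 0.71, followed by mouse 254 at 0.59. Mouse 304, a male at 0.5 mg/kg, had the highest value of its group for 7 of the 8 genes, and mice 155, 403 and 452 did for 6. *Insig1*, whose estimate had the opposite sign to those of the enzymes in males at 5 mg/kg, took part in this variation, with an r of 0.64. Without mice 255 and 404, which were chosen after their values had been seen, 1 gene was called in males at 0.5 mg/kg (*Idi1*, adjusted p = 0.0795), 6 in males at 5 mg/kg (*Sqle* in addition, adjusted p = 0.0906), and among females 1 was called at 5 mg/kg (*Lss*, adjusted p = 0.0864). The share of all probes called in this fit is not given here.

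**Figure D4:**
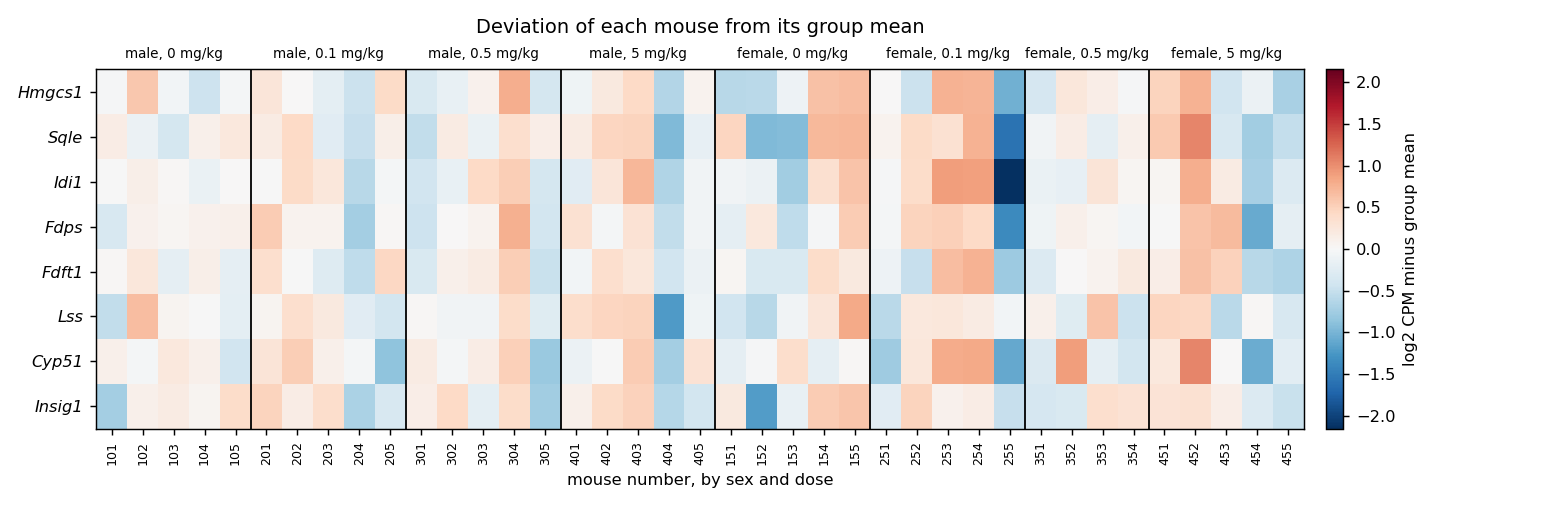
Deviation of each mouse (columns, by sex and dose) from the mean of its group for each of the 8 genes (rows), on a log2 CPM scale from blue (below) to red (above). Columns such as mouse 404 and mouse 255 are blue throughout or nearly so, with mean deviations of -0.72 and -1.08, and mouse 452 is red in each row, with 0.71.

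Over 12404 genes, those whose deviations were most like the mean of the 8 genes were led by *Sc5d* (r = 0.73), *Msmo1* (r = 0.72), *Apcs* (r = 0.71), *Acss2* (r = 0.70) and *Pmvk* (r = 0.69) over 39 libraries. *Sc5d*, *Msmo1* and *Pmvk* encode further enzymes of cholesterol synthesis, *Acss2* makes acetyl-CoA from acetate, and *Apcs* encodes a plasma protein of the pentraxin family. *Pbdc1*, *Rcn1*, *Ufd1* and *Gm43738* followed with r of 0.59 to 0.61. Without the 2 mice farthest from the median, r was 0.61 for *Sc5d*, 0.67 for *Msmo1* and 0.57 for *Apcs*. These genes were picked as the highest of all, and their r is a description.

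The other genes of the pathway were followed by lists. Of 13 other enzymes of cholesterol synthesis, 1 was called in males at 5 mg/kg and 3 were called in females at 5 mg/kg, all higher, and 0 were called at lower doses. Over all probes, the shares called at 5 mg/kg were 8.28% in males and 3.66% in females. Their median log2 fold change at 5 mg/kg was 0.32 in males and -0.07 in females, where 6 of the 13 were positive. The called enzymes described next are those of females.

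*Pmvk*, which phosphorylates mevalonate phosphate, was 330, 405, 299, 236 and 248 CPM in females at 5 mg/kg and 157, 135, 143, 159 and 221 CPM in their controls. The groups did not overlap, and the log2 fold change was 0.90 (SE 0.20 and adjusted p = 0.0038). In males at this dose, it was 0.52 (adjusted p = 0.132). *Nsdhl*, which acts after *Cyp51*, was 48.2, 39.9, 59.8, 37.7 and 79.5 CPM in these females compared with 27.4, 18.1, 24.2, 35.8 and 32.2 CPM, with a log2 fold change of 0.94 (SE 0.26 and adjusted p = 0.0327). This call was lost in 2 of the 10 fits that left out a mouse, those without control mouse 152 or mouse 455, where the adjusted p reached 0.182. Its level in female controls was below that in male controls by -1.07 on the log2 scale (adjusted p = 0.013). Neither of these enzymes differed between the sexes in its response at 5 mg/kg past the FDR (adjusted p of 0.719 and 0.504). With all 40 libraries, neither was called in females at 5 mg/kg, with an adjusted p of 0.322 for *Pmvk* and 0.392 for *Nsdhl*, and *Nsdhl* was not called between the controls (adjusted p = 0.307).

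Of 8 SREBP2 targets outside synthesis, which serve the uptake, transport and supply of lipids, 0 were called in any of the 6 dose comparisons, and *Acly*, which makes cytosolic acetyl-CoA, was lower in female than in male controls (-1.07, adjusted p = 0.0187, and 0.134 with all 40 libraries). Of 10 genes of sterol efflux, esterification and the LXR receptors, 0 were called in any comparison. Of 12 genes of the circadian clock and its output, 11 were tested and 0 were called, although their median log2 fold change was 0.37 in males at 0.5 mg/kg and, for females at 0.1 mg/kg, 0.62. Over all probes, the share called ran from 0% in females at 0.1 mg/kg to 8.28% in males at 5 mg/kg. At such shares a list this short may hold no call, so these counts of 0 do not show that the genes were unchanged.

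Among 6 regulators of the pathway, the transcription factor gene *Srebf2* itself was 54.7, 56.4, 41.6, 36.6 and 35.98 CPM in males at 5 mg/kg and 24.6, 31.2, 24.03, 50.5 and 34.1 CPM in controls. Its log2 fold change was 0.46 (adjusted p = 0.294), and in females at this dose it was -0.61 (adjusted p = 0.258). It was higher in female than in male controls (0.79, adjusted p = 0.0851), a call that was lost in 7 of 10 fits that left out a mouse and with all 40 libraries (adjusted p = 0.265). The call was also lost in edgeR with DESeq2's size factors (adjusted p = 0.106), without the filter on low counts (adjusted p = 0.127) and with only the groups compared (adjusted p = 0.133). *Scap*, the escort, had a value at 5 mg/kg of -0.41 in males (adjusted p = 0.181) and of -0.31 in females (adjusted p = 0.411). *Srebf1*, the sister gene with a larger role in fatty acid synthesis, had 0 to 3.85 molecules per male at 5 mg/kg, too few to compare at this depth.

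*Insig2*, a second gene that holds SREBP back, was the only called regulator in a dose comparison. It was 103, 122, 46.0, 64.4 and 75.3 CPM in females at 5 mg/kg and 86.5, 120, 165, 139 and 177 CPM in controls, with a log2 fold change of -0.74 (SE 0.23 and adjusted p = 0.0787). This call was lost in 6 of the 10 fits that left out a mouse and with all 40 libraries (adjusted p = 0.245). It was also lost in edgeR with DESeq2's size factors (adjusted p = 0.101) and with only the groups compared (adjusted p = 0.196). In males at 5 mg/kg, *Insig2* was 108, 109, 87.6, 102 and 125 CPM compared with 154, 170, 152, 135 and 185 CPM. Each treated male was below each control, and the share of all probes for which this held is not given here. The change of -0.58 on the log2 scale missed the threshold (adjusted p = 0.147).

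**Figure D5:**
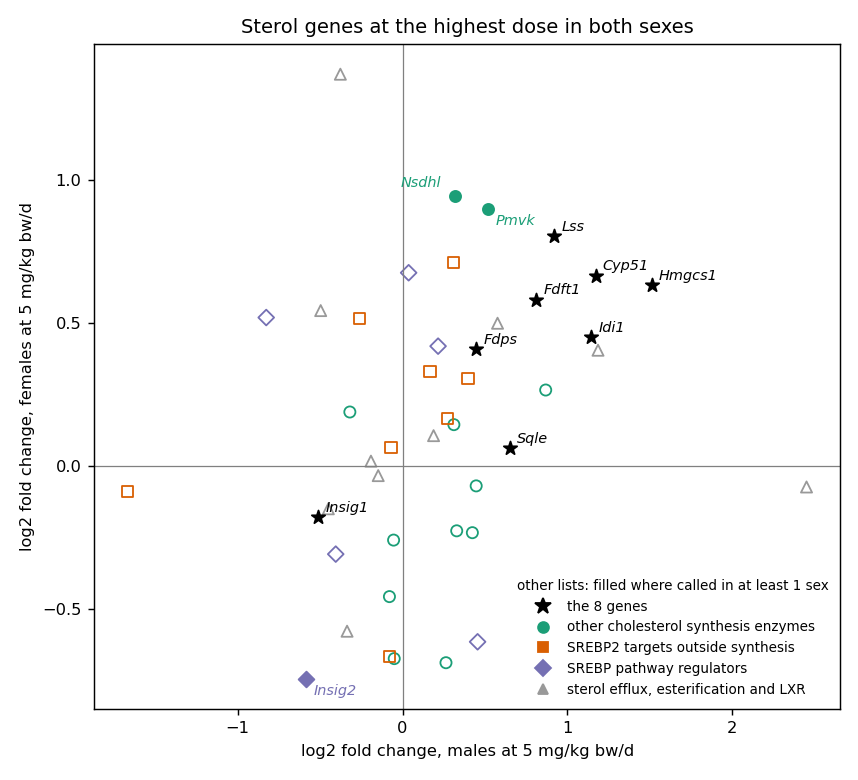
Log2 fold change at 5 mg/kg bw/d in males (horizontal) and females (vertical) for the 8 genes (stars) and the genes of 4 sterol lists reported here, filled and named where called in at least 1 sex. *Hmgcs1* lies farthest to the right among the 8 at 1.51 and 0.63, and *Insig1* and *Insig2* below 0 in both sexes.

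The other probes of the 8 genes gave a check for 6 of them. The second probe of *Hmgcs1* changed by 1.65 on the log2 scale in males at 5 mg/kg (SE 0.29 and adjusted p = 4.16e-05), and that of *Fdft1* had 0.91 (SE 0.32 and adjusted p = 0.0832). The second probe of *Fdft1* was also called in females at 5 mg/kg (1.07, adjusted p = 0.0563), where the most counted probe was not (0.58, adjusted p = 0.258). It was called lower in female than in male controls as well (-1.07, adjusted p = 0.0622), where the most counted probe had -0.29 (adjusted p = 0.747). For *Lss*, the second probe had 1.68 in males at 5 mg/kg (SE 0.69 and adjusted p = 0.161), with 5631 reads in all libraries compared with 29675 on the first. For *Sqle* and *Fdps* the second probes were not called in any comparison, with 0.48 and 0.29 in males at 5 mg/kg. The other 2 probes of *Idi1* had 1770 and 424 reads in all libraries, compared with 110230 on the first, and their values of 0.06 and -1.42 in males at 5 mg/kg had standard errors of 1.66 and 2.78. *Cyp51* and *Insig1* had a single probe each.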

How the data were processed

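Livers of 40 mice were measured with TempO-Seq. The authors demultiplexed the reads (bcl2fastq 2.17.1.14), aligned them (Bowtie, build mm10, per the labels) and deposited raw counts of reads per probe, not normalized. As in the study, libraries more than 2 SD below the mean depth (9680193 reads) were left out. The counts were tested in R 4.3.3 with edgeR 4.0.16 (TMM, default filter on low counts, quasi-likelihood F-test, 1 coefficient per group, 39 libraries). Tests were two-sided, with Benjamini-Hochberg adjustment over 17877 probes and a threshold of 10%. CPM are after TMM scaling, and deviations are on a log2 CPM scale (prior count 2). Molecules are the total divided by the first peak of the histogram of counts, smoothed with a Gaussian of 2 reads. Standard errors were derived from the test, as the absolute log2 fold change divided by the square root of the F statistic. The 95% confidence intervals were built from these standard errors with a quantile of the t distribution.

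The alternatives were DESeq2 1.42.0, its size factors in edgeR, no filter, all 40 libraries, a fit of just the groups compared, the sum of a gene's probes, counts in molecules, other probes, and leaving out each mouse. The edgeR test and the search for the first peak were tested on simulated data. The animal numbers are unique to a mouse, so no samples are paired. Gene positions are those of GENCODE M21 (GRCm38), and promoters and their starts are those of RefSeq. The RefSeq start lay 105 bases from the nearest GENCODE start of a transcript for *Idi1*. For *Cyp51* and *Insig1* this was 49 bases, for *Hmgcs1* 28 and for *Lss* 2. Genes named are the 8 genes, 4 regulators (*Srebf1*, *Srebf2*, *Scap*, *Insig2*), listed genes called in a dose comparison and the 10 genes most like the 8. *Acly* was named after its value had been seen. The genes and lists (other enzymes, other SREBP2 targets, regulators, efflux and LXR, clock, and markers of 6 cell types) were chosen with earlier results of these data known. Some genes that fall under these rules are not reported here.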

Additional observations from a re-analysis of the deposited data

Results flagged for a closer look

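In the 64 sets of 4 or 5 mice formed by the 8 genes and 8 groups, 2 held a mouse far from the others, a gap above Dixon's 95% critical value, and chance gives about 1 in 20. *Fdps* in control male 101 was 231.6 CPM, while the other 4 male controls had 303 to 316 CPM. *Cyp51* in mouse 352, a female at 0.5 mg/kg, was 54.02 CPM, while the other 3 females had 21.9 to 25.2 CPM. Without mouse 352 the highest *Cyp51* value in that group would lie within the range of the female controls, 18.8 to 28.1 CPM.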

How the results depend on the processing

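The number of the 8 genes called changed as follows, and the share of all probes called under each setting is not given here. Without the filter on low counts males at 0.5 mg/kg had 3, and there were 2 in females at 0.5 mg/kg, 1 in females at 5 mg/kg and 1 between the controls. With all 40 libraries it was 2 in males at 5 mg/kg, and with counts in molecules it was 6 there. With only the groups compared it was 2 in males at 0.5 mg/kg and 1 between the controls. In females at 5 mg/kg it was 1 with probes summed by gene, 1 with counts in molecules and 1 with DESeq2, and between the controls it was 2 with counts in molecules. Without mice 255 and 404, an alternative chosen after seeing the data, 1 gene was called in males at 0.5 mg/kg, 6 were called in males at 5 mg/kg, and 1 was called in females at 5 mg/kg. Leaving out each mouse in turn gave 3 to 5 in males at 5 mg/kg, 0 to 1 in females at 5 mg/kg and 0 to 2 between the controls. Log2 fold changes that turned their sign were all uncalled, with the exception of the probe of *Idi1* with 424 reads, at -1.4169 in males at 5 mg/kg. In females at 0.1 mg/kg, *Sqle* was -0.0012 with DESeq2's size factors and -0.0013 with DESeq2, *Fdps* was 0.12 without mice 255 and 404, and other probes gave -0.0111 for *Hmgcs1* and -1.2709 for *Idi1*. *Sqle* in females at 5 mg/kg was -0.0354 with probes summed and -0.1909 with its other probe, which gave -0.0119 in males at 0.5 mg/kg. The *Idi1* probe with 1770 reads gave -0.6368 for males at 0.1 mg/kg and -0.4897 for females at 5 mg/kg. When a mouse was left out, values in males at 0.1 mg/kg ran from -0.2576 to 0.0399 for *Fdps* and from -0.0285 to 0.2544 for *Insig1*, and *Lss* in males at 0.5 mg/kg ran from -0.0192 to 0.3024. In females at 0.1 mg/kg they ran from -0.1657 to 0.2224 for *Hmgcs1*, -0.169 to 0.2539 for *Sqle*, -0.0149 to 0.4433 for *Idi1*, -0.2159 to 0.1201 for *Fdps*, -0.0085 to 0.3578 for *Fdft1*, -0.1758 to 0.2346 for *Cyp51* and -0.0687 to 0.2805 for *Insig1*, and *Sqle* in females at 5 mg/kg ran from -0.2767 to 0.2344. The cause of these changes was not tested. No paired analysis was possible because each animal number belongs to 1 mouse of 1 group.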

Other observations

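Mouse 355, the female at 0.5 mg/kg left out for its depth, had few reads on the 8 genes. When all 40 libraries were scaled together, its level was 0 CPM for *Sqle* and *Idi1*, for which the other 4 females of its group had 101 to 128 and 215 to 293 CPM. For *Hmgcs1* it was 8.73 CPM from 73 reads, compared with 159 to 245 CPM, and for *Fdft1* it was 28.5 CPM, compared with 327 to 460 CPM. None of the 8 genes was above the female controls in this mouse. Its library held 92099 molecules, and the lowest number among the others was 287241.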
